A study of Homo sapiens with 4 samples.

Results

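Among ribosome footprints of A375 melanoma cells, 2 rows of the deposited count table that lie where SLC3A2 and TXNIP are inferred to lie on the GRCh37 build held far more reads in arginine-free than in control medium. At the SLC3A2 place, footprints averaged 7138 ± 1134 CPM in arginine-free medium and 624 ± 82.5 CPM in control medium (SD, n = 2 each). At the TXNIP place they averaged 920 ± 21.9 CPM in arginine-free medium and 59.5 ± 17.5 CPM in control medium (SD, n = 2 each). CPM are counts scaled by each library's total over the tested rows and its TMM factor. These 2 rows, of 78724 in the table, were picked for their difference in this comparison, so their values are a description and carry no test.

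A375 is an established human melanoma line. Cells were kept for 48 h in medium lacking arginine or in control medium, and ribosome-protected fragments were sequenced from 2 libraries of each group without removal of ribosomal RNA. The labels do not say that the replicates were separate cultures, so the spread between libraries may be technical. The total count was 234766 and 192006 in arginine-free replicates 1 and 2, and 105004 and 217989 in control replicates 1 and 2.

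SLC3A2 encodes the heavy chain of CD98, a surface glycoprotein that carries no amino acid by itself but pairs with light chains of the SLC7 family and brings them to the plasma membrane. Its partners exchange large neutral amino acids (SLC7A5), cystine for glutamate (SLC7A11), or cationic for neutral amino acids (SLC7A6 and SLC7A7). SLC3A2 is a known target of ATF4, the transcription factor of the amino acid response. TXNIP encodes an alpha-arrestin that binds thioredoxin and promotes the uptake of glucose transporters from the cell surface, and its transcription is driven by MondoA (MLXIP) with MLX through carbohydrate response elements.

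The identity of both rows is inferred from place. The table's coordinates are those of GRCh38, while the submitters' processing notes name GRCh37 and hg19 for the reads. The first row, ENSG00000185085.2 (chromosome 11, 62646848 to 62653302, minus strand), is that of INTS5 on GRCh38, and on GRCh37 this span is taken to lie within SLC3A2. The second, ENSG00000303361.1 (chromosome 1, 145420566 to 145443357, plus strand), has no matched RefSeq gene on GRCh38, and on GRCh37 its span is taken to hold TXNIP. No GRCh37 annotation was used here, and no coordinate was converted.

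The rows matched to both genes on GRCh38 held no read. The SLC3A2 row there (chromosome 11, 62856004 to 62888880) and the TXNIP row (chromosome 1, 145992435 to 145996579) each had 0 reads in arginine-free replicates 1 and 2 and 0 in control replicates 1 and 2. A count of 0 allows up to 3 reads, or 0.00128% and 0.00156% of the arginine-free libraries and 0.00286% and 0.00138% of the control libraries. Their surroundings were as empty. Of 9 other protein-coding rows within 100 kb of the GRCh38 SLC3A2 row, 8 were at 0 and the 1 other held 1 read, and all 7 such rows around TXNIP were at 0. For the first row to lie wholly inside SLC3A2, the gene would have to sit between 209156 and 235578 bases lower on the build of the reads than on GRCh38. For the second row to hold the whole of TXNIP, that gene would have to sit between 553222 and 571869 bases lower.

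Sequence upstream of both genes was looked at for elements known to bind their regulators, from the RefSeq windows of GRCh38.p14, which run from 250 bases before to 50 after an annotated start. The table holds 2 windows for TXNIP and 3 for SLC3A2. The carbohydrate response element, searched on both strands as CACGNG and CACGNG again 5 bases further on, was found in 20 of 35116 windows (0.057%), of which 1 was TXNIP's, with its first base 88 bases before the start. The 250 bases before that start (chr1:145996580-145996829, minus strand) are shown because they carry this match, in capitals.
TXNIP: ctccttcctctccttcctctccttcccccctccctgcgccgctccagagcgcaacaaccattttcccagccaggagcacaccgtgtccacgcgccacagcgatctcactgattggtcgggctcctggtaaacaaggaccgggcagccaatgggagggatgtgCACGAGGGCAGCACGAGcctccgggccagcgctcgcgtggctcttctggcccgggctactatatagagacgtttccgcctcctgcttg

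The amino acid response element bound by ATF4, searched as TGATGNAAN on both strands, was in 3.61% of the windows. It was in 1 of the 3 SLC3A2 windows, on the opposite strand, with its first base at position 37 counted from 1 at the start. The last 24 bases of that window (chr11:62881725-62881748, plus strand) are shown with the match in capitals.
SLC3A2: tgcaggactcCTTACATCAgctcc

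Neither TXNIP window held TGATGNAAN, no SLC3A2 window held the carbohydrate response element, and the plain E-box CACGTG, in 7.26% of windows, was in none of the 5. A match is a run of letters and does not show binding, and the footprint table does not bear on these windows directly.

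**Figure D1:**
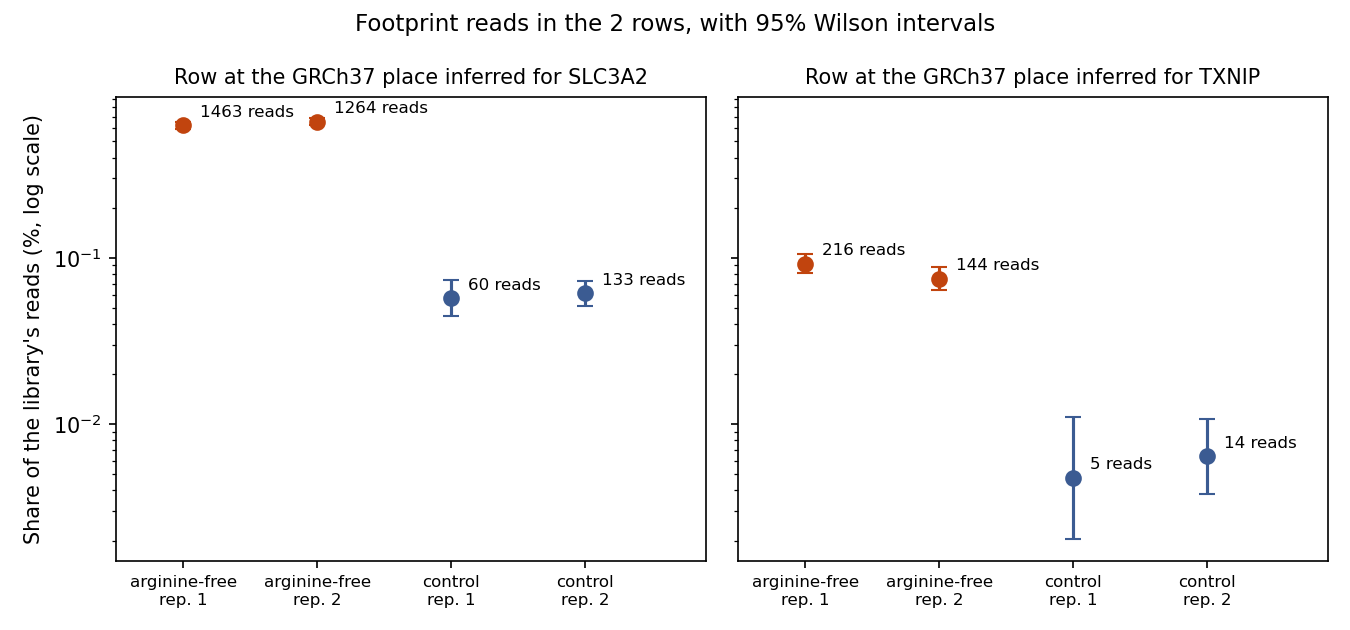
Share of each library's reads (%, log scale) in the rows at the SLC3A2 and TXNIP places, with 95% Wilson intervals and the number of reads beside each point, for arginine-free replicates 1 and 2 and control replicates 1 and 2. At both places the arginine-free libraries lie above the control libraries. The intervals of the groups do not overlap, but the rows were picked for this difference, so this is a description and no test.

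At the SLC3A2 place the row held 1463 and 1264 reads in arginine-free replicates 1 and 2, against 60 and 133 reads in control replicates 1 and 2. Both arginine-free libraries lay above both control libraries, and the replicates of each group were close to each other once depth was taken into account. As shares of all reads, these were 0.623% (95% Wilson interval 0.592 to 0.656) and 0.658% (0.623 to 0.695) in arginine-free medium. In control medium they were 0.0571% (0.0444 to 0.0735) and 0.061% (0.0515 to 0.0723). The intervals treat reads as independent and do not cover the spread between libraries. Amplified fragments without molecular identifiers are not independent molecules, so the intervals may be too narrow even for counting error. The row ranked 11 and 12 among all rows by reads in the arginine-free libraries, and 286 and 234 in the control libraries.

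After normalisation the row stood at 6336 and 7939 CPM in arginine-free medium, against 565 and 682 CPM in control medium. The fitted log2 fold change was 3.51, or 11.4-fold, and the ratio of 1 arginine-free to 1 control library was between 9.29 and 14.0 over the 4 possible pairs. The footprint count alone does not separate more mRNA from more ribosomes per mRNA, and in a bulk sample a change in which cells are present cannot be told apart from a change per cell.

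At the TXNIP place the row held 216 and 144 reads in arginine-free replicates 1 and 2, against 5 and 14 reads in control replicates 1 and 2. Again both arginine-free libraries lay above both control libraries, while the control counts were so low that each rests on few reads. Both arginine-free libraries and 1 control library reached the minimum of the filter on low counts, which asks for 2. Without the group where it is high this row would thus not have been fitted or ranked. The shares were 0.092% (95% Wilson interval 0.0805 to 0.105) and 0.075% (0.0637 to 0.0883) in arginine-free medium, against 0.00476% (0.00203 to 0.0111) and 0.00642% (0.00383 to 0.0108) in control medium. In CPM the row stood at 935 and 904 in arginine-free medium, against 47.1 and 71.8 in control medium. The fitted log2 fold change was 3.87, or 14.6-fold, and single pairs of libraries gave ratios between 12.6 and 19.9. Without control replicate 2 the log2 fold change was 4.29, and the remaining control library then held the 5 reads.

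A row counts only reads on its own exons, which were not drawn for either gene. The INTS5 row has 2 exon blocks of 3152 and 133 bases, together 3285 of its 6455 bases. The row on chromosome 1 has 10 blocks with 2031 bases spread over 22792. TXNIP spans 4145 bases, and a stretch of that length holds at most 868 exon bases of the row. If the inference holds, the counts therefore cover at most parts of each gene. Of the 2031 exon bases of the row on chromosome 1, at most 868 could lie in TXNIP. Its reads may thus come in part or wholly from sequence outside that gene. The values say nothing on which of the 2 genes was the more strongly translated.

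Counting was done without strand and without the option that assigns a read to several genes, so reads on bases shared with another row could be lost. The INTS5 row shares 306 exon bases (9.32%) with ENSG00000255432.1, which had 0 reads in every library. The row on chromosome 1 shares 114 (5.61%) with the row of NBPF20, a member of a family of near-identical copies, which had 6 and 4 reads in arginine-free medium and 5 and 4 in control medium. The shared parts are thus small in both rows, although reads lost there are not seen in the table.

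The relation of both rows to each other does not depend on any scaling. For each read at the TXNIP place there were 6.77 and 8.78 reads at the SLC3A2 place in arginine-free replicates 1 and 2, and 12 and 9.5 in control replicates 1 and 2. This ratio was lower in both arginine-free than in both control libraries, but the spread within each group was wider than the gap between them, and the difference was not tested. Over the 4 libraries the row-centred log2 CPM of the 2 rows were 0.40 apart (Euclidean distance). Both were picked for their rise in this same comparison, so nothing is read from their nearness. Of the other tested rows, 2 were closer to the SLC3A2 place than the TXNIP place was, and 1 was closer to the TXNIP place than the SLC3A2 place was.

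**Figure D2:**
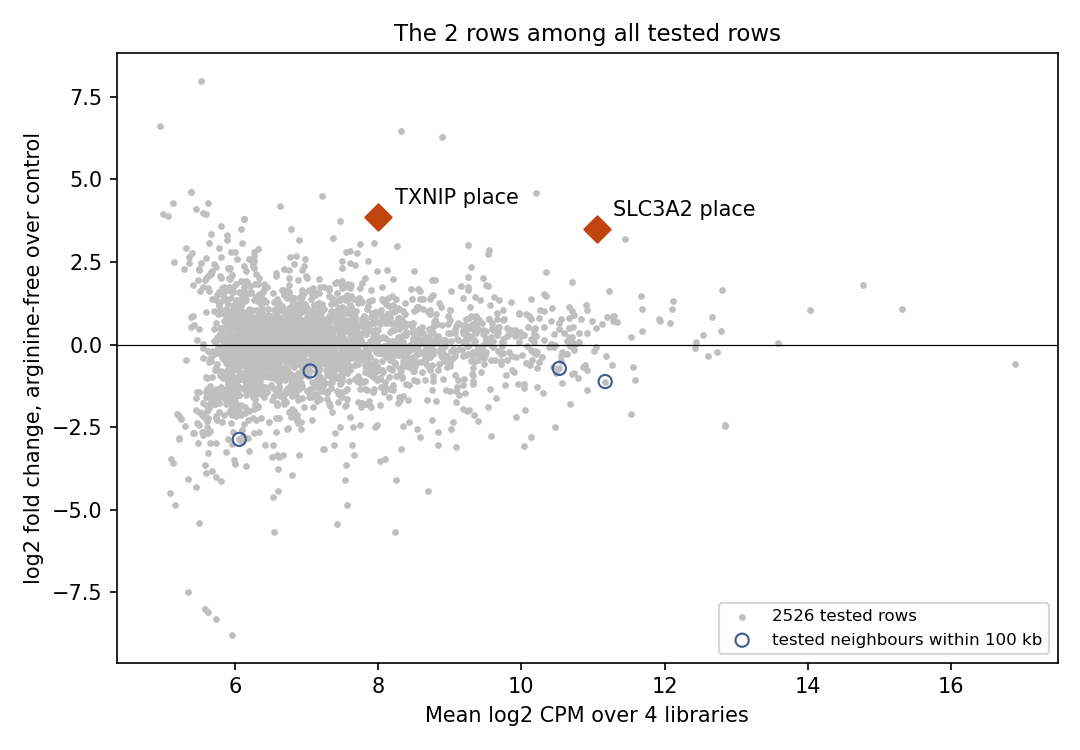
Log2 fold change (arginine-free over control) against mean log2 CPM over the 4 libraries for 2526 tested rows (grey), with the rows at the SLC3A2 and TXNIP places as red diamonds and their tested neighbours within 100 kb as blue circles. Both rows lie high in the cloud, at 3.51 and 3.87, with some other rows above them, and the 4 neighbours lie below 0.

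Over the table, 2526 rows had enough reads for a test and their median log2 fold change was -0.03. Of these, 16.0% were higher in arginine-free medium at an edgeR adjusted p under 0.05, and in 33.1% both arginine-free libraries lay above both control libraries. Both member rows fall in each of these classes, from which nothing is read because the same comparison chose them. By log2 fold change the TXNIP place ranked 17 and the SLC3A2 place 23. The 23 rows at or above the SLC3A2 place had a median of 73 reads over the 4 libraries. Of these 23, 5 held at least 300 reads, both member rows among them, against 389 of the 2526 tested rows. Because the 5 include both chosen rows, nothing is read from the share of rows with that many reads.

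Next to the SLC3A2 place in this order came the row at the GRCh38 place of KRT6C (chromosome 12, 52468516 to 52473805), which held 52 and 65 reads in the arginine-free libraries and 3 and 5 in the control libraries. Just below it was ENSG00000248587.9 (chromosome 5, 37839884 to 38152717), which held 62 and 16 reads in the arginine-free libraries and 1 and 4 in the control libraries. Beside the TXNIP place stood IRX4 above, which held 12 and 11 reads in the arginine-free libraries and 1 and 0 in the control libraries. The row of the pseudogene RPL19P7 (chromosome 3, 98620065 to 98620618) stood just below and held 45 and 31 reads in the arginine-free libraries and 1 and 3 in the control libraries. All 4 held fewer reads than either member row.

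The surroundings of both rows were chosen by place alone and could be tested. Around the SLC3A2 place, 28 other rows lay within 100 kb, of which 19 were at 0 and 3 had enough reads for a test. None of these 3 was higher in arginine-free medium and 2 were lower, against 16.9% of all tested rows. Names here are those of the GRCh38 place, and the reads need not come from those genes.

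The row at the place of EML3, 34073 bases below, held 291 and 307 reads in arginine-free replicates 1 and 2, against 302 and 787 reads in control replicates 1 and 2. It averaged 1594 ± 472 CPM in arginine-free medium and 3441 ± 841 CPM in control medium (SD, n = 2 each). Its log2 fold change was -1.12 with an SE of 0.27, and the adjusted p by edgeR was 0.00549. Leaving out control replicate 2 ended this call, at -0.82 with an edgeR adjusted p of 0.0761. The row at the place of B3GAT3, 24694 bases below, held 213 and 223 reads in arginine-free medium and 209 and 359 in control medium, and changed by -0.72 on the log2 scale with an SE of 0.24 (adjusted p = 0.0322 by edgeR). That call ended under 6 of 12 alternatives, among them leaving out arginine-free replicate 1 (-0.39), control replicate 1 (-0.66) or control replicate 2 (-0.75), with log2 fold changes from -0.98 to -0.39 over all of them. The row at the place of MTA2 held 19 and 16 reads in arginine-free medium and 19 and 28 in control medium, and at -0.80 on the log2 scale with an SE of 0.35 did not pass (adjusted p = 0.0924 by edgeR).

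The nearest row of all, that of GANAB, ends 122 bases before the INTS5 row and held 8 and 4 reads in arginine-free medium against 0 and 2 in control medium, too few for a test. For each read at the place of EML3 there were 5.03 and 4.12 reads at the SLC3A2 place in arginine-free replicates 1 and 2, against 0.199 and 0.169 in control replicates 1 and 2. Of all reads counted in rows within 100 kb, the row at the SLC3A2 place held 72.7% and 69.3% in arginine-free medium and 10.1% in each control library. The higher count was thus seen in that row and in none of its 3 tested neighbours. Under nearly all displacements given above, SLC3A2 would also cover part or all of the GANAB row, so that row need not lie outside the gene. Its few reads were also more in both arginine-free than in both control libraries, which was not tested.

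**Figure D3:**
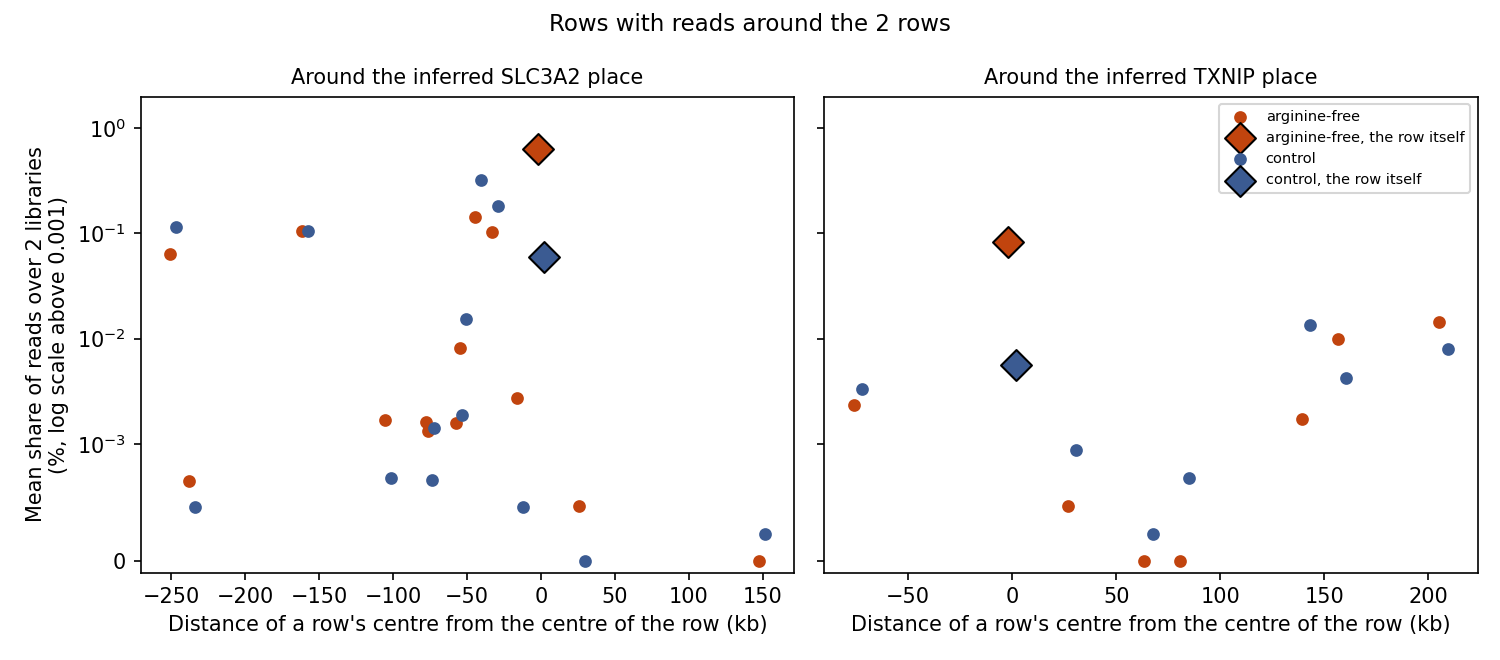
Mean share of reads over the 2 libraries of each group (%, log scale above 0.001 and linear below) for rows with reads, against the distance of their centre from the centre of the row at the SLC3A2 place (left) and at the TXNIP place (right), with arginine-free in red, control in blue and the member rows as diamonds, each pair of points set slightly apart sideways. Around the SLC3A2 place the rows of EML3 and B3GAT3 lie lower in arginine-free than in control medium while the row itself lies higher, and around the TXNIP place few reads lie outside the row within 100 kb.

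Around the TXNIP place, 14 other rows lay within 100 kb, of which 9 were at 0 and 1 could be tested. That row, ENSG00000294282.1 (chromosome 1, 145541370 to 145604922), held 2 and 5 reads in arginine-free medium against 16 and 25 in control medium. It was lower in arginine-free medium, and its change was -2.87 on the log2 scale with an SE of 0.55 (adjusted p = 0.00134 by edgeR). The filter on low counts asks for 2 libraries at its minimum, which both control libraries reached and 0 of the arginine-free libraries did, so the row was tested only through the group where it is high. Together the 14 rows held 9 and 10 reads in arginine-free replicates 1 and 2, and 24 and 31 in control replicates 1 and 2. The row at the TXNIP place thus held 96.0% and 93.5% of the reads of the window in arginine-free medium, and 17.2% and 31.1% in control medium.

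Other genes of the same pathways could hardly be followed. A row was read as its gene only in 5 stretches of chromosomes 5, 6, 9 and 19, where at least 5 neighbouring genes of broadly expressed families each had at least 20 reads. Rows of the mitochondrial chromosome were read as genes too. Of 583 nuclear genes of those families, 407 (69.8%) were at 0. The 6 SLC7 light chains that pair with CD98 all had matched rows, and all 6 were at 0 in every library. Of 35 amino acid carriers, 34 were matched, 23 of them at 0, and 3 lay in a stretch. Of 45 genes of the amino acid response, 41 were matched, 25 at 0, and 1 lay in a stretch. Of 20 genes linked to TXNIP (other arrestins, MondoA and its partners, thioredoxins, glucose carriers), 16 were matched, 11 at 0, and none lay in a stretch. Rows of known A375 markers were no better placed, with 10 of 11 matched, 6 at 0 and none in a stretch, so the line was not checked by them.

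The carrier that could be tested was SLC1A3, which takes up glutamate and aspartate (chromosome 5, 36596588 to 36688334). Its row held 33 and 11 reads in arginine-free replicates 1 and 2, against 1 and 14 reads in control replicates 1 and 2. The groups overlapped, and the log2 fold change of 1.18 with an SE of 0.58 did not pass (adjusted p = 0.131 by edgeR). Both arginine-free libraries and 1 control library reached the minimum of the filter on low counts, which asks for 2. The row was thus tested only through the group where it is high. Leaving out control replicate 2 gave 3.46, with the 1 read of control replicate 1 as the only control count. Leaving out arginine-free replicate 2 gave 1.58 (adjusted p = 0.0412 by edgeR), so that either omission brought the gene past the threshold. The amino acid response gene in a stretch was TARS1, the cytosolic threonyl-tRNA synthetase (chromosome 5, 33440696 to 33468086). It averaged 779 ± 18.6 CPM in arginine-free medium and 687 ± 51.5 CPM in control medium (SD, n = 2 each), and its log2 fold change of 0.18 did not pass (edgeR adjusted p = 0.548). Of the list members in stretches, 0 of 2 tested thus passed with edgeR, 0 had an unadjusted p under 0.05, and 0 passed with DESeq2, while 33.0% of all tested rows passed with edgeR in either direction. With 2 genes, a count of 0 is near that share and is not a result about the lists.

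Among 184 protein-coding genes in the stretches or on the mitochondrial chromosome, the same 5 were nearest to both rows over the 4 libraries by Euclidean distance of row-centred log2 CPM. ZNF622, a factor of large ribosomal subunit maturation, lay 1.50 from the SLC3A2 place and 1.78 from the TXNIP place. Its row held 263 and 205 reads in arginine-free medium and 32 and 55 in control medium. It was followed by the homeobox factor IRX4 (1.52 and 1.84), which rests on 24 reads, and by RPL37 of the large ribosomal subunit (1.71 and 1.93). MED10, a subunit of the Mediator complex, lay at 1.95 and 2.23, and APTX, which repairs DNA ends, at 2.02 and 2.26. None was as near to either place as the places were to each other, which carries no weight because both were picked for their rise. Of all other tested rows, the other member row included, 58 and 64 were nearer to the SLC3A2 and TXNIP places than ZNF622 was. By Pearson correlation, which ignores the size of the change, 1 of these 5 remained for the SLC3A2 place and 0 for the TXNIP place.

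**Figure D4:**
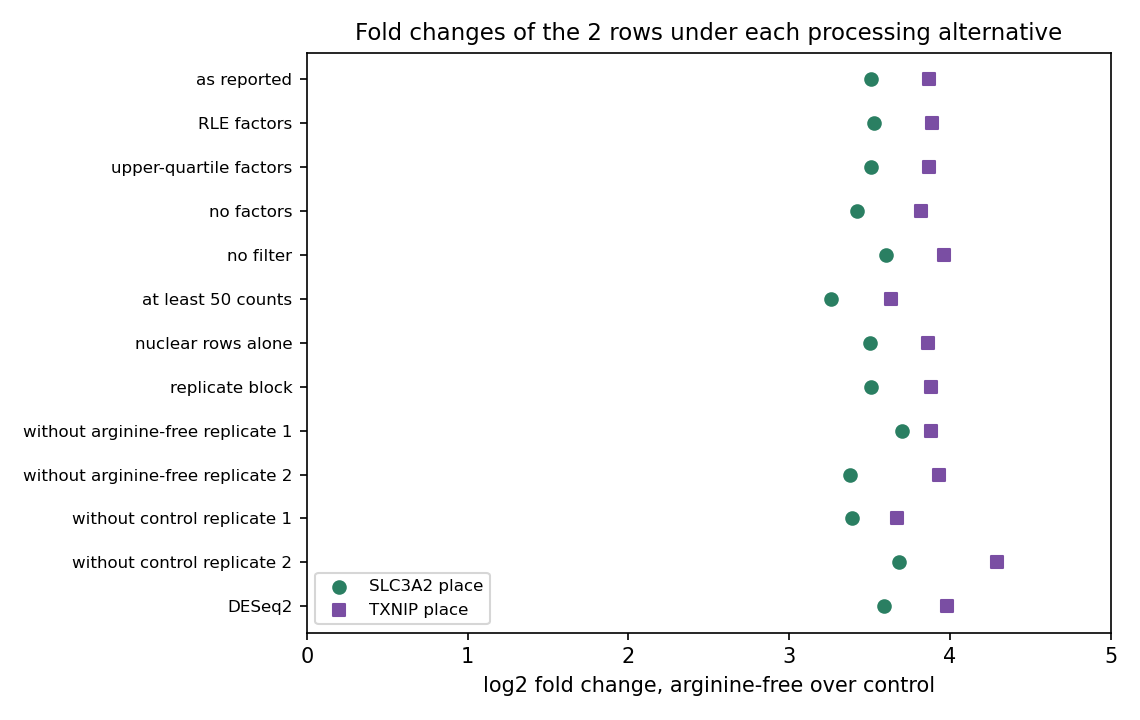
Log2 fold change (arginine-free over control) of the rows at the SLC3A2 place (circles) and the TXNIP place (squares) as reported and under 12 processing alternatives. Values ran from 3.26 to 3.70 at the SLC3A2 place and from 3.63 to 4.29 at the TXNIP place.

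Under the 12 alternatives the log2 fold change ran from 3.26 to 3.70 at the SLC3A2 place and from 3.63 to 4.29 at the TXNIP place. It was 3.50 and 3.86 when nuclear rows alone set the scale, and 3.42 and 3.82 with no factors beyond library totals. These runs reuse the libraries that chose the rows and so describe only how much the size depends on the calculation.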

How the data were processed

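The deposited values are counts per gene row, made by the authors with featureCounts 2.0.1 on the exons of GENCODE 47 (basic) without strand, per the file headers. Trimming and alignment tools were cutadapt, TopHat2 and Bowtie2 2.5.2, and the build GRCh37 (hg19), per the submitters' processing notes. The command in the header asks for paired reads although the labels give single reads, and what this did to the counts was not tested.

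Rows were named by mutual best overlap with RefSeq genes of GRCh38.p14 (overlap over union at least 0.5 with a shared end, otherwise 0.75), which named 38583 rows. Of 78724 rows, 9443 held a read. Tests used edgeR 4.0.16 in R 4.3.3 (TMM, filterByExpr, quasi-likelihood test, Benjamini-Hochberg adjustment over 2526 rows, threshold 0.05) and DESeq2 1.42.0 as an alternative. Each SE was derived as the size of the fitted change divided by the root of its F statistic. Log2 CPM for distances used a prior count of 2. On simulated counts for this comparison (2454 of 2526 rows tested) edgeR called 93.1% of 4-fold and 30.9% of 2-fold changes and 0.266% of unchanged rows. The simulation gave every row the same dispersion. It changed few of the tested rows, 87 by 4-fold and 110 by 2-fold, so these rates need not hold for the data. Tables were made with Python 3.11.15 and pandas 2.3.3.

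Named rows are both members, the GRCh38 rows of the same genes, neighbours within 100 kb with at least 20 reads, tested list members in stretches, the 5 rows most alike and the rows next in order. GANAB and NBPF20, with fewer reads, were named after their values were seen. Members, lists and the families behind the stretches were chosen with earlier results of these data known. Protein sequences were not used here.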

Additional observations from a re-analysis of the deposited data

How the results depend on the processing

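No result changed direction under an alternative where it was past the threshold, and TARS1, which did not pass, stood at -0.06 under the stricter filter below. The log2 fold change at the SLC3A2 place was 3.26 when rows were kept only if both libraries of a group held 50 counts or more, and at the TXNIP place it ran from 3.67 to 4.29 when 1 library was left out. With this stricter filter 138 rows were higher and 146 lower over the table, and with DESeq2 162 and 147, against 405 and 428. Leaving out 1 library gave 270 to 418 higher and 243 to 389 lower rows, with both lowest counts without control replicate 2. The stricter filter tested 580 rows in place of 2526. DESeq2, run on all rows with a read and not on those kept by this filter, gave 2669 rows an adjusted p. The settings without 1 library tested 2826 to 3172 rows, more than 2526. There the filter on low counts asked for 1 library, since it asks for as many as the smaller group holds. The titles number the replicates of both groups alike, but nothing says that a number marks a shared culture or day, and deviations from the group means of same-numbered libraries had a correlation of -0.0528 over 2526 rows. With the replicate block 354 rows were higher and 372 lower, the log2 fold changes of the member rows were 3.51 and 3.88, and the row at the place of B3GAT3 did not pass (edgeR adjusted p = 0.0764). Of 69 values for the neighbours and list members, 60 kept the call they had, 7 lost it and 2 gained one. A window of 250 kb gave 3 called neighbours of the SLC3A2 place and 2 of the TXNIP place, in place of 2 and 1. Stretches found with at least 10 reads per gene held the same number of list members, 4. The arginine share of the proteins was not run. Depth limits the TXNIP place, where control medium gave 19 reads in all.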

Other observations

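Between 100 and 250 kb from the member rows, 2 more rows near the SLC3A2 place and 2 near the TXNIP place were tested. The row at the place of AHNAK (chromosome 11, 62433542 to 62546806) averaged 1177 ± 84.9 CPM in arginine-free medium and 1105 ± 76.3 CPM in control medium (SD, n = 2 each, edgeR adjusted p = 0.762). ENSG00000307387.1 (chromosome 11, 62400589 to 62402410) held 145 and 127 reads in arginine-free medium and 127 and 234 in control medium, and changed by -0.76 on the log2 scale with an SE of 0.22 (adjusted p = 0.0154 by edgeR). Near the TXNIP place, the row of the pseudogene NBPF25P held 26 and 17 reads in arginine-free medium and 6 and 6 in control medium, and changed by 1.43 on the log2 scale with an SE of 0.47 (adjusted p = 0.0315 by edgeR). Both arginine-free libraries and 1 control library reached the minimum of the filter on low counts, which asks for 2, so without the group where it is high this row would not have been tested. That of GPR89A, a Golgi channel protein, stood at 1.06 on the log2 scale with an SE of 0.40 and did not pass (adjusted p = 0.0567 by edgeR). The GPR89A row too reached the minimum in both arginine-free libraries and 1 control library. All are named by their GRCh38 place, and their reads need not come from those genes.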
